A study of Mus musculus with 37 samples.

Results

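The urea cycle and its arginine branch were followed through 10 genes (Nags, Cps1, Otc, Ass1, Asl, Arg1, Arg2, Glul, Gamt and Gatm) out of the 48795 genes counted in mouse hippocampus. They were chosen by their place in the pathway and on the measured rise of Nags in the same comparison, so their differences between genotypes are given as a description and without p-values, and calls are counted only to stand beside the share of all genes. Hippocampal poly-A RNA of 3 Kdm1a-ifKO males was compared with that of 3 control males, with 1 library per mouse. Kdm1a-ifKOs carried Kdm1a f/f alleles, in which loxP sites flank exons 5 and 6, and the tamoxifen-inducible Camk2a-creERT2 driver, which is active in excitatory neurons of the forebrain. Controls, labelled WT, were littermates without the Cre driver that received the same drug, and recombination was induced at 8 weeks of age by 5 administrations of tamoxifen. The time from tamoxifen to the RNA was not given in the sources used here. A single CTCF ChIA-PET library, which lists pairs of CTCF-bound anchors joined by paired-end tags (PETs), came from sorted Camk2a+ hippocampal nuclei of male WT mice given tamoxifen. The sort relied on a Sun1/sfGFP nuclear tag switched on by the same driver.

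In the liver, the urea cycle turns ammonia into urea. N-acetylglutamate synthase, the product of Nags, makes the obligate activator of the first enzyme, carbamoyl phosphate synthetase 1 (Cps1), and ornithine transcarbamylase (Otc) follows in the mitochondrion, while argininosuccinate synthetase (Ass1), argininosuccinate lyase (Asl) and arginase 1 (Arg1) complete the cycle in the cytosol. The brain is known to lack a complete cycle: it clears ammonia mainly through glutamine synthetase (Glul) in astrocytes, uses Ass1 and Asl to remake arginine for nitric oxide, and makes creatine from arginine through Gatm and Gamt.

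Whole-gene counts of Kdm1a, the targeted gene, were 1521, 1545 and 1481 in controls and 764, 726 and 748 in Kdm1a-ifKOs, a log2 fold change (log2FC) of -1.07 ± 0.056 (SE, n = 3 against 3, edgeR adjusted p = 6.24e-08). These counts cover all exons, including those outside the deletion, and come from a tissue in which glia and interneurons keep the gene. Libraries held 18985542 to 19469947 counts, so a single read was worth 0.0514 to 0.0527 CPM (counts scaled to library size), and 16799 genes were tested. The first principal component, with 50.2% of the variance, separated the genotypes, while the second, with 16.6%, placed control replicate 3 and replicate 2 of the Kdm1a-ifKOs on one side and the remaining 4 libraries on the other. All 9 excitatory neuron markers examined, Camk2a included, and all 7 interneuron markers had enough reads to be tested.

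The Nags gene (ENSMUSG00000048217) lies on the plus strand at chr11:102145513-102149477 in GRCm38. Its promoter and that of Gamt are shown because these are the members with the larger increases for which RefSeq promoter sequence (GRCm38.p6) was at hand. Entries were found for 6 of the 10 genes (Nags, Glul, Ass1, Gatm, Gamt and Otc). Each line is the 250 bases before the RefSeq start, at chr11:102145263-102145512 on the plus strand for Nags and chr10:80261013-80261262 on the minus strand for Gamt, read along the gene, and capitals mark the GC box GGGCGG or its reverse complement CCGCCC.
Nags: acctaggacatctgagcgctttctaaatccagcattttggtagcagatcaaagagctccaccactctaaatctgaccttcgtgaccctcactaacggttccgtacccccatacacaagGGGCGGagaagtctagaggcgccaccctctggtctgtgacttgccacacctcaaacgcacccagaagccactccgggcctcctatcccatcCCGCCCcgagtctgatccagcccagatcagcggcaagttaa
Gamt: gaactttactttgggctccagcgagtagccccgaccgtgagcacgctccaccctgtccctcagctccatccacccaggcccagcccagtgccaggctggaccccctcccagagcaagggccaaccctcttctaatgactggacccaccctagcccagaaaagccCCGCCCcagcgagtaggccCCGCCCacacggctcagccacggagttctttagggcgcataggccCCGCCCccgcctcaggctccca
The Nags window held 2 such boxes and that of Gamt 3. At least 1 box was present in 32.7% of the 32851 mouse promoter windows of the same length, at least 2 in 16.7% and at least 3 in 8.47%. The Nags window had a GC content of 55.6% and 11 CpG dinucleotides, beside medians of 52.4% and 6 over all windows. The Otc window was the poorest of the 6, with 43.6% GC, 1 CpG and no GC box, and the Ass1 window the richest, with 75.6% GC and 23 CpGs. No window of the 6 held TATAAA, on either strand, in its last 50 bases, a match seen in 3.50% of all windows.

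Nags went from almost no reads to a low but even level. The 3 control libraries held 1, 0 and 1 reads, and the 3 Kdm1a-ifKO libraries 91, 97 and 96. All Kdm1a-ifKO libraries were far above all controls, and they differed little among themselves. In CPM the gene rose from 0.0353 ± 0.0306 to 4.84 ± 0.143 (SD, n = 3 each), and in TPM, which are scaled to exon length as well as library size, from 0.0495 ± 0.0429 to 6.82 ± 0.229. The ratio of the summed counts per library size was 138, with a 95% exact binomial interval of 37.7 to 1141 that covers counting error only. The width comes from the 2 control reads. Its fitted log2FC of 6.86 ± 0.375 (SE) was rank 3 of the 16799 tested genes. Nags was tested only because of its reads in Kdm1a-ifKOs. Gm11586 overlaps Nags on the opposite strand. The strand setting of the counting was not given in the sources used here, and Gm11586 itself was listed with 0 reads in controls and 0, 1 and 1 in Kdm1a-ifKOs.

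**Figure D1:**
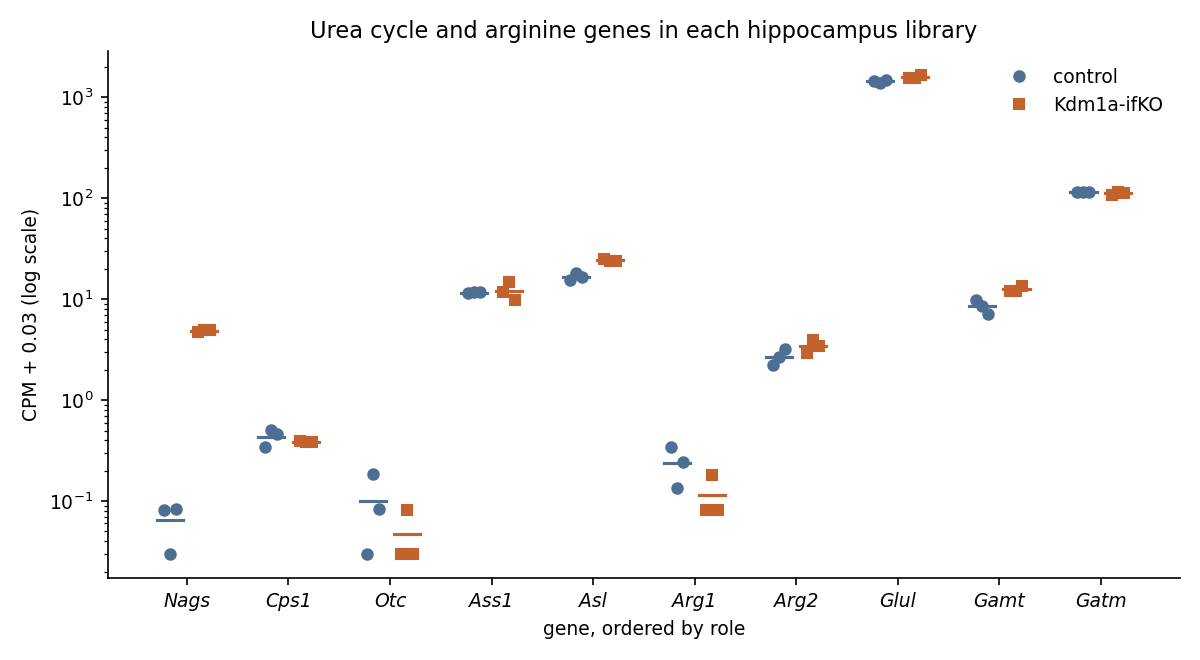
Level of each gene in each library, in CPM plus 0.03 on a log axis, with genes ordered by role; circles are the 3 controls, squares the 3 Kdm1a-ifKOs and bars the group means. Nags moves from at most 1 read to about 4.84 CPM, while Cps1, Otc and Arg1 stay below 1 CPM in every library.

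The other mitochondrial enzymes of the cycle stayed near the limit of detection. Cps1, whose enzyme depends on the product of Nags, had 6, 9 and 8 reads in controls and 7 in each of the 3 Kdm1a-ifKO libraries. The groups overlapped, with a count ratio of 0.884 (interval 0.465 to 1.67). Otc had 0, 3 and 1 reads in controls and 0, 1 and 0 in Kdm1a-ifKOs, a ratio of 0.242 with an interval of 0.0049 to 2.45. Neither gene had enough reads to be tested, and a change of modest size was not detectable at this depth. In TPM, Nags over Cps1 was 0.326, 0 and 0.245 in controls and 25.4, 27.1 and 26.8 in Kdm1a-ifKOs, so the activator enzyme's transcript passed that of its target enzyme only in the knockout libraries.

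Of the cytosolic enzymes, Asl increased while Ass1, the step before it, overlapped between genotypes. Asl, which splits argininosuccinate into arginine and fumarate, had 295, 349 and 306 reads in controls and 482, 473 and 463 in Kdm1a-ifKOs, or 16.7 ± 1.47 and 24.2 ± 0.528 CPM (SD, n = 3 each). The groups were apart, with a log2FC of 0.53 ± 0.082 (SE), an increase of 44.6%. Ass1 had 218, 225 and 217 reads in controls and 227, 293 and 191 in Kdm1a-ifKOs, with a log2FC of 0.06 ± 0.134. Controls were tight, and the Kdm1a-ifKO libraries spread to both sides of them. The ratio of Asl to Ass1 in TPM was accordingly 0.676, 0.775 and 0.705 in controls and 1.06, 0.807 and 1.21 in Kdm1a-ifKOs, where the lowest knockout value lay just above the highest control value. Arg1, which releases urea from arginine, had 6, 2 and 4 reads in controls and 1, 3 and 1 in Kdm1a-ifKOs and was not tested (ratio 0.404, interval 0.111 to 1.23). The mitochondrial isoenzyme Arg2 was the more abundant arginase, with 42, 50 and 59 reads in controls and 56, 78 and 67 in Kdm1a-ifKOs. These groups overlapped (log2FC 0.36 ± 0.197), and Arg2 shares its locus with Vti1b on the opposite strand.

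The arginine-to-creatine branch changed at its second step. Gamt, which methylates guanidinoacetate to creatine, had 186, 163 and 132 reads in controls and 236, 235 and 260 in Kdm1a-ifKOs. The groups were apart at 8.45 ± 1.32 and 12.5 ± 0.768 CPM (SD, n = 3 each), with a log2FC of 0.56 ± 0.122 (SE), an increase of 47.3%. Gatm, which makes guanidinoacetate from arginine and glycine, had 2188, 2195 and 2145 reads in controls and 2099, 2285 and 2216 in Kdm1a-ifKOs, and its groups overlapped at a log2FC of -0.03 ± 0.050. The TPM ratio of Gatm to Gamt was 5.66, 6.48 and 7.82 in controls and 4.28, 4.68 and 4.10 in Kdm1a-ifKOs.

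Glul, the enzyme that fixes ammonia on glutamate, outweighed all other members together. It made up 88.3% to 89.3% of the summed TPM of the 10 genes in every library. Its TPM was 1729, 1656 and 1775 in controls and 1856, 1903 and 2007 in Kdm1a-ifKOs. The groups were apart by a small step, a log2FC of 0.15 ± 0.051 (SE), or 11.2%. Astrocyte markers moved with Glul: all 11 of the astrocyte list had a positive log2FC. Of these, 4 (S100b, Slc1a3, Sox9 and Aldoc) were called higher by edgeR, beside 6.04% of all tested genes. The summed TPM of the 11 was 3337 to 3587 in controls and 3816 to 4146 in Kdm1a-ifKOs. Glul per unit of that sum was 0.484, 0.496 and 0.495 in controls and 0.486, 0.474 and 0.484 in Kdm1a-ifKOs, and on this ratio the groups overlapped. The part of astrocyte content in the Glul difference was not tested beyond this ratio, and in whole tissue more cells of a type and more RNA per cell cannot be told apart. Teddm2, on the opposite strand, and Mir8114, on the same strand, overlap the Glul gene.

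**Figure D2:**
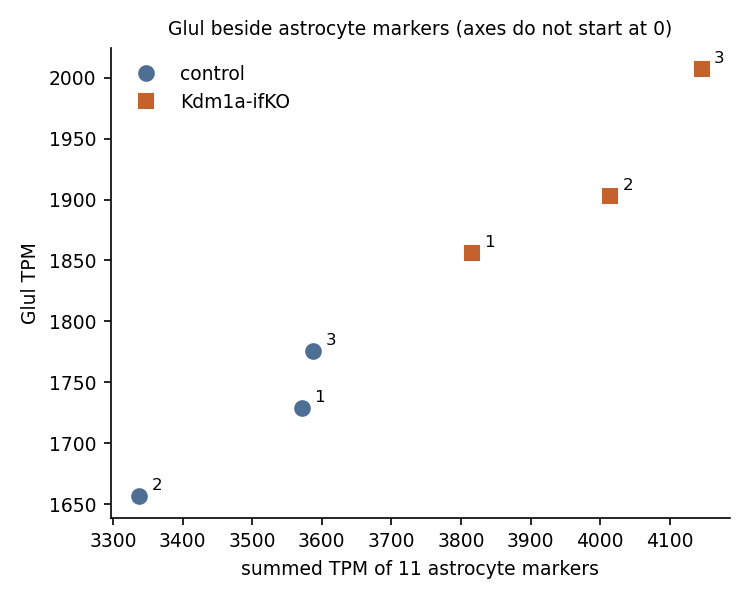
Glul TPM against the summed TPM of 11 astrocyte markers in each library (circles controls, squares Kdm1a-ifKOs, numbers the replicate; neither axis starts at 0). The 3 Kdm1a-ifKO libraries lie above the controls on both axes.

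Among the 10 genes, 7 were tested and 3 (Nags, Asl and Gamt) were called higher at an edgeR adjusted p under 0.05, beside 6.04% of all tested genes. None was called lower, beside 2.82% of all. With a log2FC over 1 the call was left for Nags alone, beside 1.36% of all. In 4 of the 7, Kdm1a-ifKO libraries lay above all controls without overlap (Nags, Asl, Gamt and Glul), beside 15.6% of all tested genes. The median log2FC of the 7 was 0.36, beside -0.0034 over all 16799. Because the genes were chosen with this contrast in view, nothing is read from these counts. Without Kdm1a-ifKO replicate 3, 2 members were called, as Gamt dropped out, and without control replicate 3 there were 4, Glul included.

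The members differed widely in level in the control hippocampus. By mean TPM the order ran Glul (1720.2), Gatm (152), Gamt (23.3), Ass1 (19.1), Asl (13.8), Arg2 (7.41), Arg1 (0.377), Cps1 (0.290), Otc (0.0659) and Nags (0.0495). Of the 9 pairs of neighbours in this order, Arg1 and Cps1 overlapped between libraries and so did Otc and Nags. Gamt and Ass1 came close, with a lowest Gamt value equal to the highest Ass1 value at the printed precision (19.4 TPM). The transcripts of creatine synthesis and of arginine recycling were thus well above those of Cps1, Otc and Arg1, and the latter, with Nags, were each below 1 TPM in every control library. In Kdm1a-ifKOs, Nags moved from rank 10 to rank 7, just under Arg2 at 9.59 ± 1.57 TPM (SD, n = 3).

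Hepatocyte genes, which would accompany the cycle in liver, were mostly scarce in both genotypes, with Foxa3 as an exception between them. Of 16 hepatocyte markers 1 was tested and none called by edgeR or DESeq2, with 0 at an unadjusted p under 0.05. Their summed TPM ranged from 11.6 to 15.1 in controls and from 13.8 to 15.9 in Kdm1a-ifKOs, and Serpina1a and G6pc were at 0 in all 6 libraries. Apoh, named after its values were seen, had 5, 5 and 3 reads in controls and 7, 14 and 11 in Kdm1a-ifKOs, which did not overlap. Of 12 hepatocyte transcription factors, several of which neural cells also express, 6 were tested and none called by either tool, with 2 at an unadjusted p under 0.05 (Cebpa and Ppara, both higher, edgeR adjusted p = 0.105 and 0.0901). Their summed TPM was 77.2 to 90.5 in controls and 87.7 to 94.1 in Kdm1a-ifKOs, and Hnf4a and Foxa2 were at 0 throughout. Foxa3, a forkhead factor of liver named after its values were seen, had 0 reads in each control and 7, 14 and 7 in Kdm1a-ifKOs, too few for the filter. The planned edgeR fits with a looser filter were read for Foxa3 after seeing the data. In them Foxa3 was called higher (adjusted p = 0.00299 with at least 10 counts over the libraries, 6.4e-06 with no filter), while DESeq2 gave it no adjusted p. Foxa3 entered these fits only through its reads in Kdm1a-ifKOs, so nothing is read from its calls. With no filter Ppara was called as well (adjusted p = 0.0332) and Apoh was not (0.157).

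In the wider pathway, 67 further genes in 6 lists were examined, of which 59 were tested. Of these 4 rose (6.78%, beside 6.04% of all tested genes) and 5 fell (8.47%, beside 2.82% of all), all by less than 1 on the log2 scale. The share that rose was near that of all genes, and these shares were not compared by a test. Among the carriers, Slc25a29, a mitochondrial carrier of basic amino acids, rose by 0.45 ± 0.095 (log2FC ± SE, edgeR adjusted p = 0.0105), with 385, 384 and 323 reads in controls and 479, 479 and 578 in Kdm1a-ifKOs. Slc38a3, a glutamine transporter of astrocytes, rose by 0.27 ± 0.066 (adjusted p = 0.0211), and Slc1a3, an astrocytic glutamate transporter, rose by 0.22 ± 0.050 (adjusted p = 0.0161). Slc38a3 was no longer called without control replicate 2, Kdm1a-ifKO replicate 2 or Kdm1a-ifKO replicate 3, nor with replicate number as a block. Slc1a3 was no longer called without control replicate 1 or 2, or without Kdm1a-ifKO replicate 1 or 3. Slc1a3 also stands in the astrocyte list, whose members moved in the same direction as described for Glul, and how far astrocyte content bears on it was not tested. Slc38a1, a neuronal glutamine transporter, fell by 0.21 on the log2 scale (SE 0.056, adjusted p = 0.0370). With a library left out, Slc38a1 stayed called only without control replicate 1 or Kdm1a-ifKO replicate 2. Upper-quartile normalization did not call it.

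Among the enzymes of glutamate, glutamine and ammonia, Gls2, a glutaminase that releases ammonia from glutamine, was lower. Gls2 had 486, 394 and 443 reads in controls and 333, 394 and 350 in Kdm1a-ifKOs, and fell by 0.34 on the log2 scale (SE 0.093, edgeR adjusted p = 0.0367). After scaling to library size its groups did not overlap, but DESeq2 did not call it. Gls2 was no longer called without control replicate 1 or 3, without Kdm1a-ifKO replicate 1 or 3, or with replicate number as a block. The highest value of this list belonged to Rhcg, an ammonia channel with under 1 CPM in either group, at 0.63 ± 0.382 (adjusted p = 0.341). Excitatory neuron markers had summed TPM of 6553 to 7153 in controls and 6382 to 6934 in Kdm1a-ifKOs. Of these markers 2 of 9 were called lower, beside 2.82% of all tested genes, and their part in the Gls2 difference was not tested.

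The polyamine branch, which starts from ornithine, held 2 of the decreases. Azin1, an inhibitor of antizyme, fell by 0.24 on the log2 scale (SE 0.058, adjusted p = 0.0231), and Sms, spermine synthase, fell by 0.20 (SE 0.055, adjusted p = 0.0411). With a library left out, Sms stayed called only in the fit lacking control replicate 1. Upper-quartile normalization did not call Sms. In that list of 19 tested genes the extremes were Oaz3 at -0.53 ± 0.327 and Aldh4a1 at 0.18 ± 0.084, neither past the threshold. On the nitric oxide side, Gch1, which makes the tetrahydrobiopterin cofactor of nitric oxide synthases, had 34, 40 and 35 reads in controls and 67, 53 and 64 in Kdm1a-ifKOs and rose by 0.71 ± 0.193 (adjusted p = 0.0374). DESeq2 did not call Gch1, and it was called in 1 of the 6 fits with a library left out, the one lacking Kdm1a-ifKO replicate 2. The 6 tested genes of that list all had positive values, down to 0.10 ± 0.120 for Nos3, the endothelial synthase. In the N-acetyl amino acid list (7 tested, from -0.10 for Acy1 to 0.33 for Acy3) and the creatine list (3 tested, from -0.04 for Ckb to 0.10 for Slc6a8), no gene was called by edgeR or DESeq2 and none had an unadjusted p under 0.05. The counts of calls varied with the library left out, which also makes a group smaller. Increases and decreases were 2 and 4 without control replicate 1, 1 and 2 without control replicate 2, and 3 and 2 without control replicate 3. Among the knockout libraries, leaving out replicate 1 gave 2 and 1, and leaving out replicate 2 gave 3 and 4. Without Kdm1a-ifKO replicate 3 both were 0, with 8 and 6 at an unadjusted p under 0.05, beside 9 and 6 with all libraries.

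**Figure D3:**
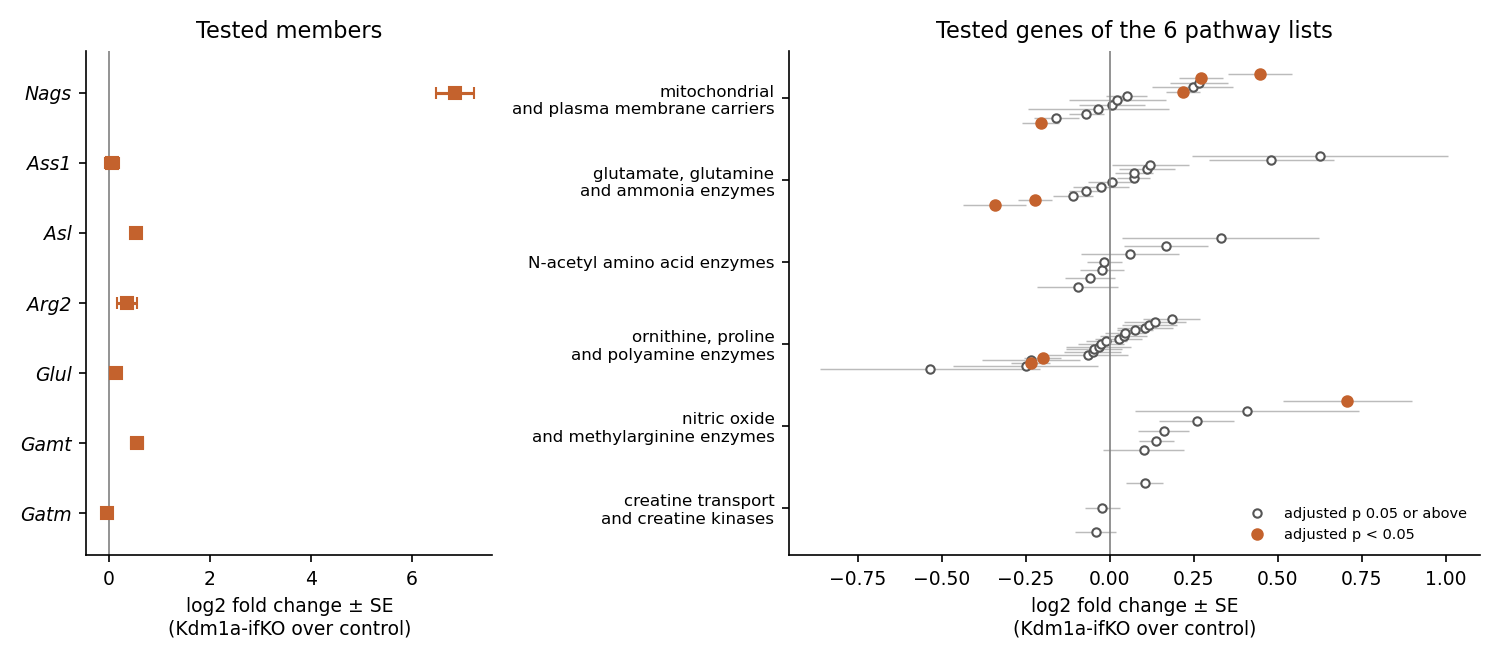
Left, log2FC with SE of the 7 tested members; right, log2FC with SE of the 59 tested genes of the 6 pathway lists, filled where the edgeR adjusted p was under 0.05. Nags stands at 6.86, while the pathway genes that passed the test lie between -0.34 and 0.71.

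The increase of Nags was not shared by the genes beside it. Of 13 counted genes within 100 kb of its body 6 were tested, and none was called by edgeR or DESeq2 or had an unadjusted p under 0.05. Tmem101, the nearest downstream gene at 3.07 kb, had 364, 366 and 327 reads in controls and 372, 391 and 409 in Kdm1a-ifKOs (log2FC 0.10 ± 0.079, adjusted p = 0.456). The nearest upstream gene, Gm11585 at 20.9 kb, had 2, 0 and 0 reads against 0, 0 and 2. Further upstream, Pyy was at 0 in all libraries and Ppy had 1 read in 1 Kdm1a-ifKO library. The lowest adjusted p among the 6 was 0.393, for BC030867 (log2FC -0.61 ± 0.412).

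Around all members, 72 genes lay within 100 kb, 42 were tested, 5 rose (11.9%) and 1 fell (2.38%), beside the 6.04% and 2.82% given above for all genes. Near Gamt, 3 of 15 tested neighbours rose: Reep6 at 68.9 kb (log2FC 0.59 ± 0.122, adjusted p = 0.00963), Pcsk4 at 60.3 kb (0.73 ± 0.178, adjusted p = 0.0221) and Adamtsl5 at 78.1 kb (0.62 ± 0.153, adjusted p = 0.0240). The Gamt difference itself, 0.56, was of similar size, but the genes next to Gamt were not called. Dazap1 at 0.474 kb had a log2FC of 0.10 ± 0.075 (adjusted p = 0.464). Ndufs7 at 1.36 kb had 0.06 ± 0.066 (adjusted p = 0.614). Hmcn2, 9.47 kb from Ass1, rose by 1.05 ± 0.246 (adjusted p = 0.0181), while Ass1 itself overlapped. Near Asl, Tpst1 rose by 0.23 ± 0.057 (adjusted p = 0.0234), and near Otc, Rpgr fell by 0.32 on the log2 scale (SE 0.088, adjusted p = 0.0400). Calls near members also varied with the library left out. Increases were 3 without control replicate 1, 2 or Kdm1a-ifKO replicate 3, 2 without control replicate 3, and 0 when Kdm1a-ifKO replicate 1 was left out. That last fit had 6 increases at an unadjusted p under 0.05, beside 7 with all libraries. Of the 6 fits with a library left out, Rpgr was called in 1, the fit lacking Kdm1a-ifKO replicate 2, and DESeq2 did not call it.

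CTCF loops in the sorted Camk2a+ nuclei of WT mice, which were not the RNA-seq controls, were then read at each gene. In the ChIA-PET library 27786 loops were listed, and 56.9% of the tested genes had an anchor within 10 kb of their body, with a median of 1 loop. Nags had 13 such loops with 145 PETs, a number that 4.54% of tested genes reached. Ass1 had 11 loops with 113 PETs, Asl 9 with 45, Glul 4 with 86 and Gamt 1 with 102. Cps1, Otc, Arg1, Arg2 and Gatm had none. Thus 5 of the 10 had a loop near. No anchor covered the start site of any member, and anchors touched the bodies of Ass1 and Asl only. With 1 library these are values without replicate error.

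Most of the Nags loops met at anchors a short way upstream of it. Of the 13 loops, 8 ran from anchors centred at -6.70 to -3.98 kb from the start site to sites further upstream and carried 126 PETs. The strongest, with 93 PETs, joined chr11:102135929-102143023 to chr11:102096605-102105863. This far anchor held the Ppy start, while the Pyy start lay outside the anchor but within 2 kb of it. A CTCF core motif (12 bases, with either of 2 bases allowed at some positions) was searched on both strands. It was found once in the far anchor, on the plus strand 42.8 kb before the Nags start. That match is shown in capitals within chr11:102102680-102102719 (GRCm38.p6) and was the only one in the 4 anchors examined around Nags.
CTCF core motif, far anchor: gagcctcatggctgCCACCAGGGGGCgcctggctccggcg
Of listed anchors within 10% of that anchor's length of 9259 bp, 45.7% held the motif, and 20.7% of all 55480 anchors did. Beyond those choices of base the core motif allows no mismatch, so no match says only that no sequence of this pattern is in the window.

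A further loop enclosed Nags tightly. It joined chr11:102140778-102142650 to chr11:102155757-102157453, with anchor centres 3.80 kb before and 11.1 kb after the Nags start, spanned 14.9 kb and had 6 PETs. Its downstream anchor lay at the Tmem101 start. Only 1.76% of tested genes were spanned by a loop as short, although a short gene such as Nags (3.97 kb) can be spanned by shorter loops than a long one. In all, 14 loops spanned Nags, of which 9 were over 1 Mb long with at most 5 PETs each. The shortest loop was 43.0 kb for Asl, 49.8 kb for Gamt, 60.2 kb for Gatm and 138 kb for Glul.

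**Figure D4:**
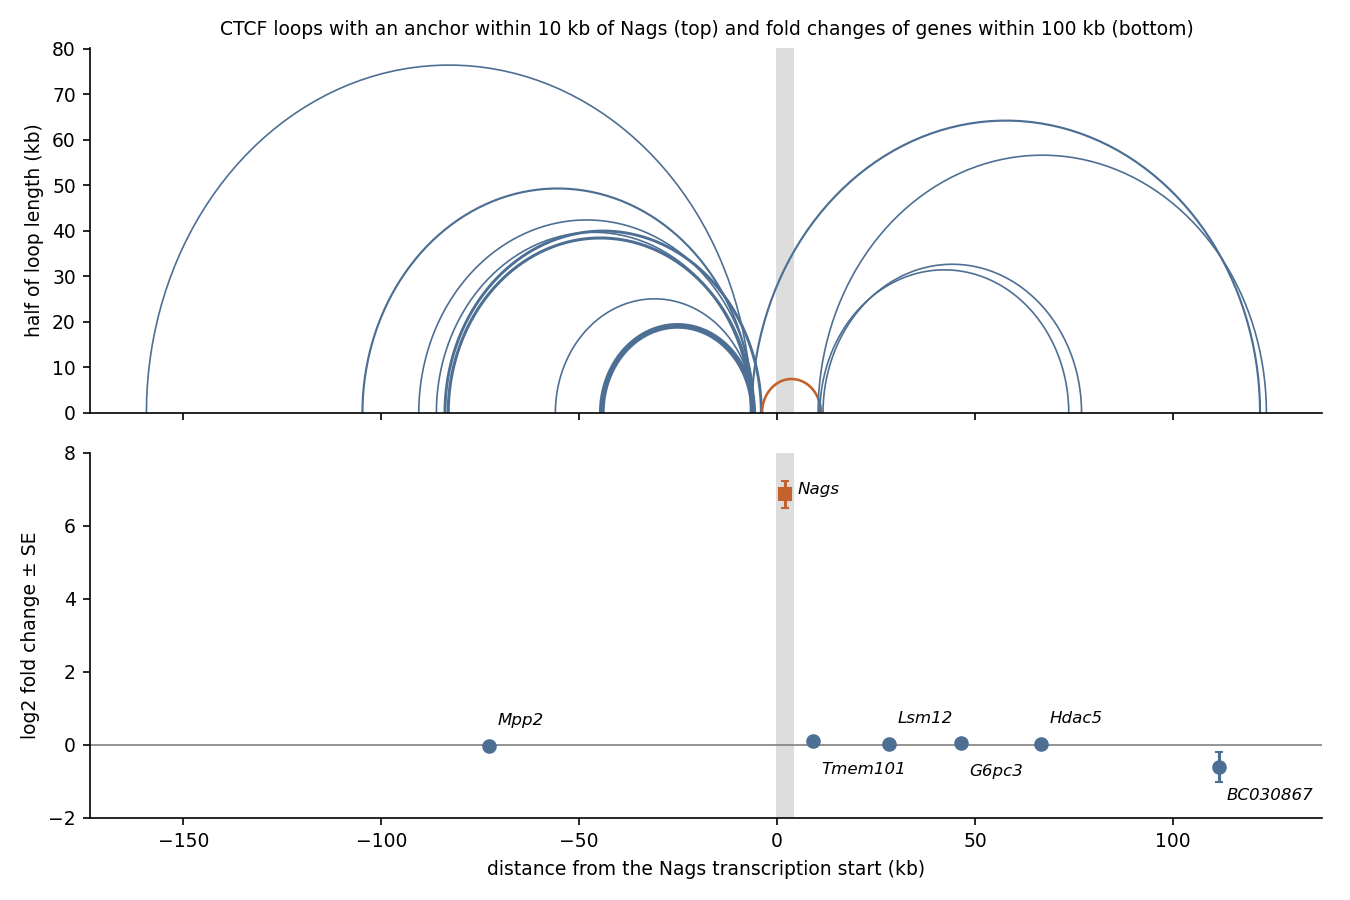
Top, the 13 CTCF loops with an anchor within 10 kb of Nags, drawn as arcs between anchor centres, with line width rising with PETs and the 14.9-kb loop in orange; bottom, log2FC with SE of the tested genes within 100 kb. The grey band is the Nags body, and Nags at 6.86 stands alone above neighbours that lie between -0.61 and 0.10.

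The genes whose level over the 6 libraries was most like that of Nags, among 340 genes with a control mean under 1 CPM and at least 1 CPM in Kdm1a-ifKOs, were C1ql4, Otop1, Gal, Tcf24 and Kremen2 (Pearson r of log2 CPM 0.999, 0.999, 0.997, 0.997 and 0.996, n = 6 libraries). These points share the genotype split and, for low genes, the same zero library, so r is a measure of likeness and no more. C1ql4, a C1q-like secreted protein gene, had 1, 0 and 1 reads in controls, the same as Nags, and 110, 98 and 123 in Kdm1a-ifKOs. Otop1, a proton channel gene, had 1, 0 and 1 against 82, 81 and 67. Tcf24, a bHLH factor gene, reached 839, 738 and 811 reads from 8, 6 and 8. Gal, the galanin gene, had 5, 3 and 4 reads against 34, 30 and 30, and Kremen2, a Dickkopf receptor gene, had 12, 10 and 15 against 65, 64 and 72.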

How the data were processed

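Bulk RNA-seq counts of hippocampus (3 control and 3 Kdm1a-ifKO mice) and 1 CTCF ChIA-PET loop list were used; the other assays of the study were not analysed here. The authors made the deposited read counts by trimming with cutadapt 1.18, alignment to GRCm38 (mm10) with HISAT2 2.1.0, a mapping quality filter above 30 and counting per Ensembl gene with HTSeq 0.11.1; PET counts of loops came from ChIA-PIPE, per the study's methods, which kept loops of 3 or more PETs whose anchors each held a CTCF peak.

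Here genes were named with GENCODE M21, which held 48435 of the 48795 identifiers. Genotypes were compared in edgeR 4.0.16 (R 4.3.3; filterByExpr, TMM, quasi-likelihood F test, genotype only), with Benjamini-Hochberg adjustment over 16799 genes and a call at an adjusted p under 0.05. Tested on simulated data for this comparison (16684 genes tested), the fit called 50 of 50 genes at a set log2FC of 2, 50 of 50 at -2, 47 of 50 at 1 and 44 of 50 at -1, with 15 false calls. The changed genes were drawn at control levels well above that of Nags, and changes smaller than 1 were not simulated. These rates therefore do not cover such genes or changes. CPM uses TMM library sizes and TPM the summed exon length. Members and lists were chosen with earlier results of these data known. Named are all members, Kdm1a, pathway and neighbouring genes (within 100 kb) past the threshold, the extremes of each pathway list, the nearest counted genes beside Nags, the 5 genes most correlated with Nags, and markers past the threshold where a list had at most 5; some items that fall under this rule are counted but not reported here by name. The other marker lists gave these calls, beside 6.04% of all tested genes higher and 2.82% lower: microglia 4 of 11 higher (Cx3cr1, Csf1r, Tmem119 and C1qb), endothelial and mural cells 1 of 7 higher (Pdgfrb), choroid plexus and ependyma 1 of 7 higher (Kl), interneurons 2 of 7 lower (Vip and Npy). All 11 microglia markers had a positive log2FC, 9 had an unadjusted p under 0.05 in edgeR, and DESeq2 called 6. Their summed TPM was 672 to 726 in controls and 763 to 1014 in Kdm1a-ifKOs. Oligodendrocytes, their precursors, meningeal fibroblasts and red blood cells gave 0 by edgeR and by DESeq2, with 0, 1, 0 and 1 at an unadjusted p under 0.05. Alternatives were DESeq2 1.42.0, other normalizations and filters, a replicate block and each library left out; samples with the same replicate number did not deviate together (r -0.03, -0.09 and -0.14). Motifs were searched in RefSeq promoters and in the genome of build GRCm38.p6.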

Additional observations from a re-analysis of the deposited data

How the results depend on the processing

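The log2FC of the 7 tested members kept its size, within the spread between replicates, in 83 of 84 refits; the exception was Nags without control replicate 2, the library with 0 reads, at 6.34 (range with 1 library left out 6.34 to 7.22). Leaving out 1 library moved Ass1 between -0.12 and 0.19, Arg2 between 0.24 and 0.51, Asl between 0.48 and 0.60, Gamt between 0.45 and 0.67, Glul between 0.12 and 0.18 and Gatm between -0.05 and -0.00099. The count of members called higher, an alternative added after seeing the data, was 2 to 4 with 1 library left out and 3 or 4 otherwise.

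The labels do not say how replicates were numbered. Same-numbered libraries did not deviate together, which does not settle whether those mice were paired. The replicate block left 2 pathway genes higher and 0 lower (5 at an unadjusted p under 0.05), 4 neighbours higher and 0 lower, and 3 members. With 1 library left out, pathway genes called ranged from 0 to 3 higher and from 0 to 4 lower, and neighbours from 0 to 4 higher and from 0 to 1 lower; 0 in both directions came without Kdm1a-ifKO replicate 3 for the pathway and without Kdm1a-ifKO replicate 1 for the neighbours, and 0 lower neighbours also without control replicate 2, control replicate 3 or Kdm1a-ifKO replicate 3. Upper-quartile normalization gave 3 pathway genes lower and 0 neighbours lower, DESeq2 gave 0 neighbours lower, and no filter on low counts gave 2. The cause was not tested.

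The control order of members changed for 4 members in CPM, which is not divided by length, for 2 with the longest transcript as length (Asl above Ass1), and for 0 to 2 with 1 control left out. Loops near Nags numbered 4 at 5 PETs or more, 1 at 10 or more and 0 on the gene body itself, where 2 of the 10 members had any; loops spanning Nags numbered 3 and 1 at these PET limits.

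At this depth 1 read is about 0.05 CPM, so changes of Cps1, Otc and Arg1 within their intervals could not be seen, and bulk tissue does not place any change in a cell type.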
